A study of Homo sapiens with 19 samples.

Results

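Messenger RNA of 8 genes of the epidermal growth factor (EGF) family was followed in A549, a long-established cell line from a human lung adenocarcinoma. The genes were taken from a fixed list and comprise 5 ligands (AREG, EREG, HBEGF, TGFA and BTC) and 3 receptors (EGFR, ERBB2 and ERBB3). All 8 were found by Ensembl identifier among the 62700 genes of the count files, and all 8 passed the filter on low counts.

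EGF family ligands are made as transmembrane precursors that metalloproteases such as ADAM17 cut to release the soluble growth factor. A released ligand binds EGFR or a related receptor, the receptors pair, and tyrosine phosphorylation recruits adaptors that switch on RAS and the kinases RAF, MEK and ERK. AREG, EREG and HBEGF are themselves transcribed in response to this cascade and to tissue injury, and EGFR signalling is a main growth signal in lung adenocarcinoma.

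The study applied nanostraw electroporation (NEE): cells sit on hollow tubes of nanometre width, and electric pulses open their membranes so that RNA leaves while they live. Lysates came from A549 monolayers and A549 spheroids collected before NEE, right after it, 2 h after it and 24 h after it, with 2 biological replicates in each of the 8 groups. Another group held 3 technical replicates of RNA sampled by NEE from A549 monolayers. The labels name no genetic change and no drug, and every library was made by Smart-Seq2, which copies full-length polyadenylated RNA.

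The 16 lysate libraries held 16031034 to 24571083 counts and the 3 NEE-sampled libraries 13626934 to 18512985. Levels are counts scaled to the library total (CPM), and 3 counts correspond to 0.122 to 0.22 CPM, a floor that covers counting error only. Of the 10 epithelial and A549 markers, KRT8, KRT18, AKR1B10 and ALDH1A1 were the most abundant, EPCAM was at 1.40 to 11.1 CPM, SFTPC was at 0 in 10 libraries and NKX2-1 at 0 in all 19. Replicate 1 of the monolayers before NEE stood apart. All 10 markers of natural killer and T cells were highest there, with a summed level of 569 CPM against 14.4 to 23.5 CPM in the other monolayer libraries, 14.5 to 51.1 CPM in spheroids and 0.216 to 1.03 CPM in NEE-sampled RNA. Its 10 epithelial and A549 markers summed to 14584 CPM, against 30313 to 44791 CPM in the other monolayers.

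AREG and EREG lie side by side on chromosome 4 (GRCh38, GENCODE 29). EREG spans chr4:74365143-74388751 and AREG spans chr4:74445134-74455009, both on the plus strand, with 56382 bases and no protein-coding gene between them. BTC lies on the minus strand at chr4:74744759-74794686, 289749 bases beyond AREG. HBEGF is at chr5:140332843-140346631 and TGFA at chr2:70447280-70554193, both on the minus strand. EGFR is at chr7:55019021-55211628, ERBB2 at chr17:39687914-39730426 and ERBB3 at chr12:56076799-56103505, all on the plus strand. All 8 are protein-coding.

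The promoters of AREG and EREG are shown because these neighbours were both above every earlier library of their culture at 2 h. Each is the 250 bases before the RefSeq start (GRCh38.p14), on the plus strand, with matches to the searched motifs in capitals; AREG covers chr4:74444886-74445135 and EREG covers chr4:74364895-74365144.
AREG: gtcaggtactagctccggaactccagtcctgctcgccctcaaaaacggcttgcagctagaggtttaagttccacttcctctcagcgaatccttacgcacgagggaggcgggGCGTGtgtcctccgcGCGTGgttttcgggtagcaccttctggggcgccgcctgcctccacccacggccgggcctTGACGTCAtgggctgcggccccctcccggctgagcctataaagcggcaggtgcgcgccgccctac
EREG: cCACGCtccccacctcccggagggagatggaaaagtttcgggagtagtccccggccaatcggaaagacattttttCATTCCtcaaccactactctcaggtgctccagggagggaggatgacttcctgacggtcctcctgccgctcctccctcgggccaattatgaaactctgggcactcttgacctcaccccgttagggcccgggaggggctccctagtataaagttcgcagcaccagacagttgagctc
Letters of 5 motifs were searched on both strands: the cyclic AMP response element TGACGTCA, the AP-1 site TGANTCA, the serum response factor site (CArG box), the TEAD site GGAATG and the xenobiotic response element core GCGTG. The AREG promoter held the cyclic AMP response element 65 to 58 bases before the start, letters that 1.65% of 35116 RefSeq promoters of this length hold. It also held the xenobiotic core, present in 32.2% of promoters, at 139 to 135 and at 124 to 120 bases. The EREG promoter held the TEAD letters, on the other strand as CATTCC, 175 to 170 bases before the start, as did 11.9% of promoters, and the xenobiotic core as CACGC 249 to 245 bases before it. The AP-1 letters, in 6.57% of promoters, and the CArG box, in 1.16%, were in neither window, and the HBEGF window held none of the 5 motifs. Symbols of 7 of the 8 genes matched the RefSeq table, ERBB3 being the exception. A match describes letters only, since no binding was measured.

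Levels of different genes were compared per kilobase of annotated exon. In the 8 monolayer lysates EREG (24.9 ± 11.2 CPM per kb, SD, n = 8, spanning the 4 times) was first, before AREG (14.9 ± 7.83), EGFR (10.1 ± 2.57) and TGFA (7.16 ± 2.22). ERBB2 (3.64 ± 0.485), HBEGF (2.06 ± 0.999), BTC (1.502 ± 0.379) and ERBB3 (0.295 ± 0.279) followed. The ranges of all neighbours down to TGFA and ERBB2 overlapped, as did those of ERBB2 with HBEGF, HBEGF with BTC, and BTC with ERBB3. No pair of neighbours in this order was thus separated by its ranges over the 8 libraries. Here and below, ranges are taken over libraries, and the order of 2 genes within each library was not compared. In the 8 spheroid lysates the order began with TGFA (8.72 ± 3.24 CPM per kb), EREG (6.77 ± 6.14), AREG (5.33 ± 3.51), EGFR (5.26 ± 1.21) and ERBB2 (4.45 ± 1.04). BTC (1.23 ± 0.329), ERBB3 (0.703 ± 0.376) and HBEGF (0.702 ± 0.901) were low, and ERBB2 and BTC were the one pair of neighbours whose ranges did not overlap. In NEE-sampled RNA AREG (4.33 ± 1.55 CPM per kb, n = 3) was first, followed by EGFR (1.73 ± 1.19), TGFA (1.55 ± 0.950), EREG (1.45 ± 0.572), BTC, HBEGF, ERBB2 (0.542 ± 0.0761) and ERBB3 (0.226 ± 0.246), and the ranges of all neighbours in this order overlapped. The exon length is that of all annotated exons merged, so a gene with many unused exons reads low on this scale.

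**Figure D1:**
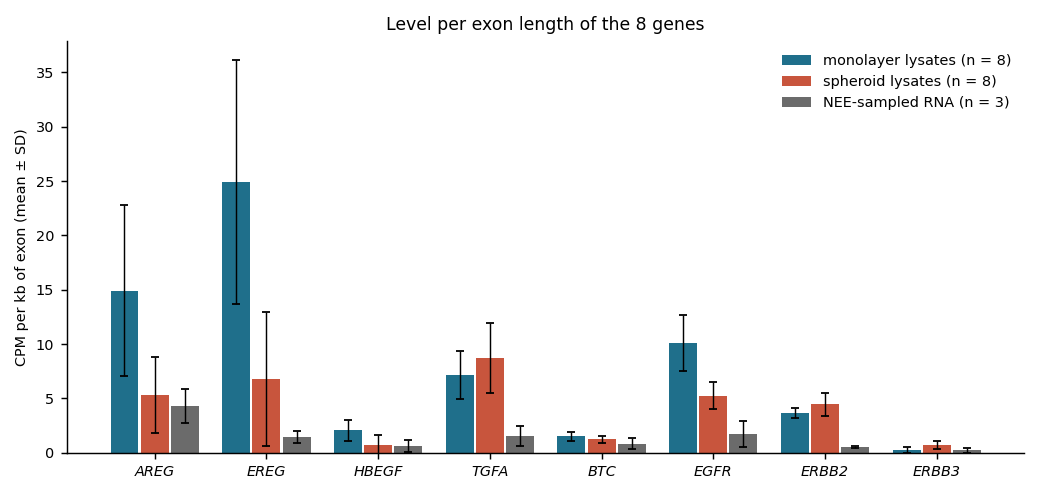
Mean CPM per kb of annotated exon (y axis, from 0) of the 8 genes in monolayer lysates (n = 8), spheroid lysates (n = 8) and NEE-sampled RNA (n = 3), with bars of 1 SD. The EREG, AREG and EGFR bars are tallest in monolayers, whereas those of TGFA, ERBB2 and ERBB3 are taller in spheroids, and all 8 are lowest in NEE-sampled RNA. For ERBB3 the monolayer and NEE-sampled bars differ by less than 1 SD.

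The first question was how the family behaved in the hours after NEE, first among the ligands. AREG, a low-affinity EGFR ligand, was 11.2 and 21.9 CPM in monolayers before NEE (replicates 1 and 2), 20.8 and 15.7 right after, 33.6 and 51.7 at 2 h and 25.6 and 16.3 at 24 h. In spheroids AREG was 4.71 and 3.32 CPM before, 4.90 and 6.83 right after, 21.3 and 11.7 at 2 h and 7.25 and 10.3 at 24 h. In each culture both 2 h libraries lay above all 6 others for AREG. EREG, which binds EGFR and ERBB4, was 183 and 80.0 CPM in monolayers before NEE, 158 and 105 right after, 236 and 214 at 2 h and 82.9 and 79.6 at 24 h. In spheroids EREG was 26.3 and 17.1 CPM before, 27.8 and 14.3 right after, 118 and 60.5 at 2 h and 22.7 and 23.1 at 24 h. EREG was thus highest at 2 h in both cultures, with no overlap with the other times of the same culture.

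HBEGF, a heparin-binding ligand of EGFR and ERBB4, was 8.63 and 5.20 CPM in monolayers before NEE, 2.26 and 6.42 right after, 11.6 and 7.62 at 2 h and 3.73 and 4.21 at 24 h. In spheroids HBEGF was 0.222 and 1.13 CPM before, 1.24 and 1.49 right after, 8.73 and 0.936 at 2 h and 1.16 and 2.05 at 24 h. The 2 h libraries of HBEGF overlapped the earlier ones in both cultures, and in spheroids replicate 1 alone was high. TGFA, a high-affinity EGFR ligand, ranged from 19.6 to 55.5 CPM in monolayers and from 19.1 to 66.8 CPM in spheroids. BTC, the lowest of the ligands per kilobase in monolayers, ranged from 2.01 to 5.25 CPM in monolayers and from 2.16 to 4.95 CPM in spheroids. For TGFA the 4 times overlapped in both cultures. For BTC both right-after libraries were below the other 6 in monolayers, at 3.79 and 2.01 CPM, and above the other 6 in spheroids, at 4.95 and 4.63 CPM. Both monolayer libraries before NEE, at 5.25 and 5.20 CPM, were above the 6 later ones for BTC. BTC had 36 to 129 counts in the lysates. The shares of all genes with these BTC patterns were not computed, so they are a description only.

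**Figure D2:**
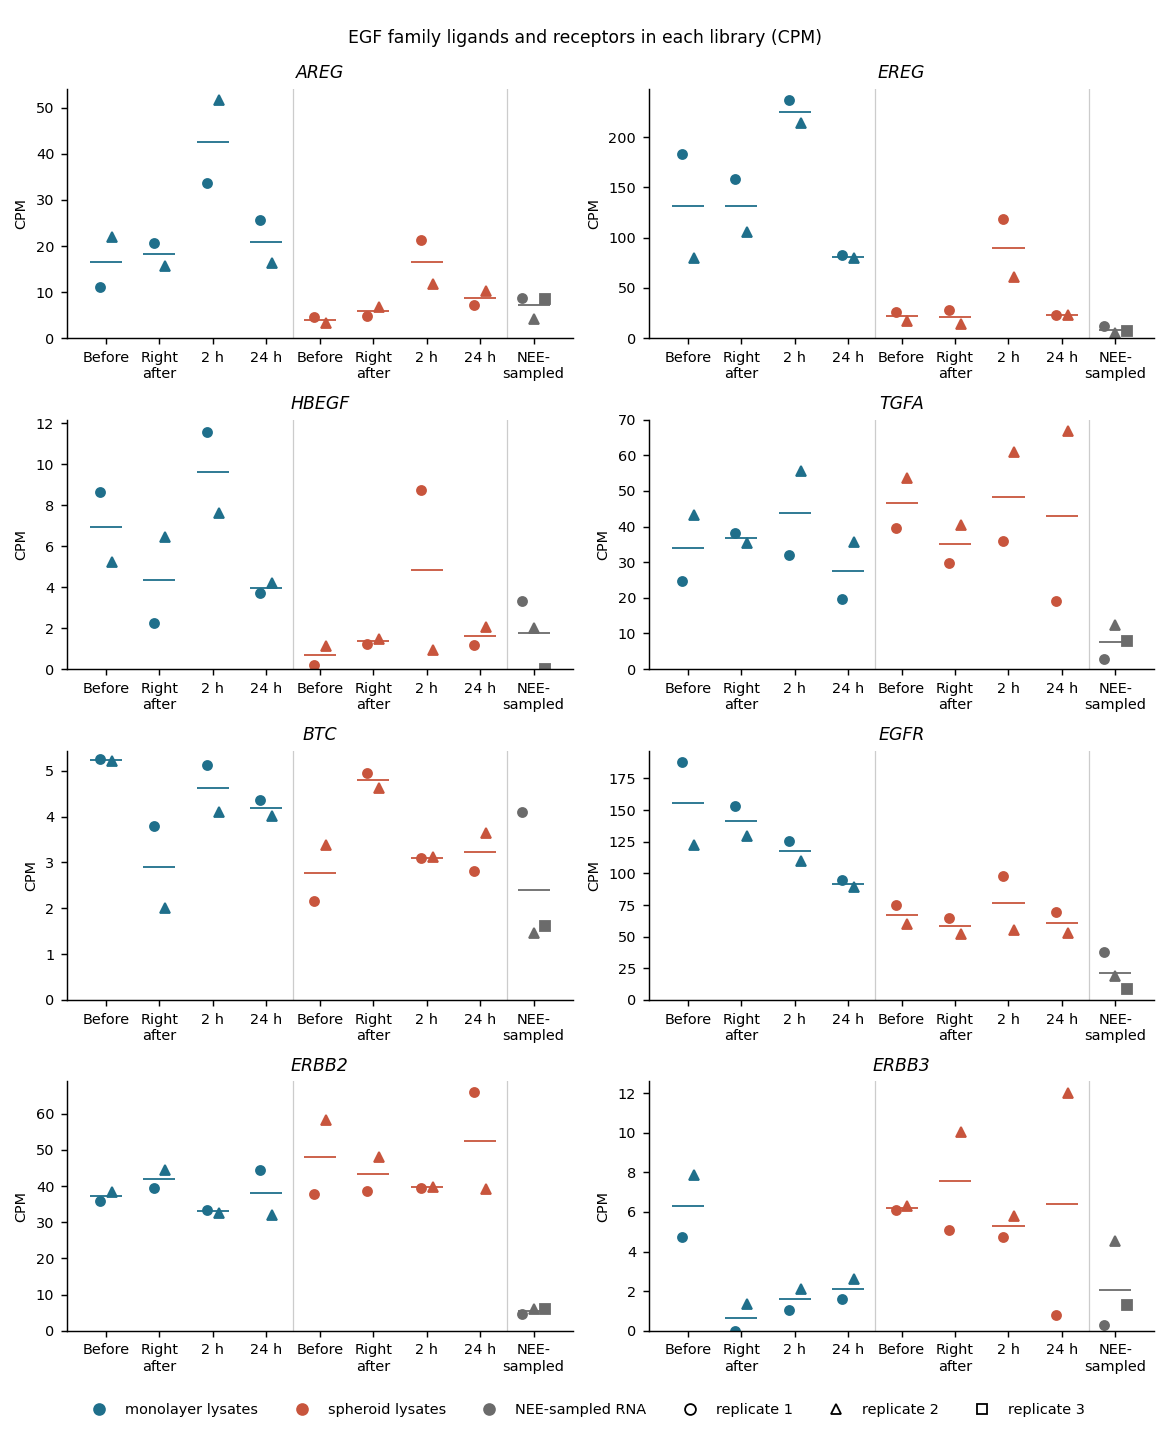
CPM (y axis, from 0, a scale of its own in each panel) of the 8 genes in all 19 libraries, by culture and time (x axis); points are libraries, with the replicate given by the symbol, and short lines are group means. AREG and EREG are highest at 2 h in both cultures, monolayers lie above spheroids for AREG, EREG and EGFR at each time, and EREG, EGFR and ERBB2 are lowest in NEE-sampled RNA.

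Right after NEE none of the 8 genes was called against before NEE over both cultures (edgeR quasi-likelihood test, Benjamini-Hochberg adjusted over 17822 genes, adjusted p = 1 for each). Their log2 fold changes lay between -1.47 ± 0.84 (SE) for ERBB3 and 0.34 ± 0.32 for AREG, with 4 libraries on each side. With the library that held leukocyte markers left out, AREG was at 0.12 and EREG at 0.33, against -0.02 for EREG with it. The background was 0% of genes called, also 0 by DESeq2, with 401 genes (2.25%) at an unadjusted p under 0.05. In bulk lysates fewer expressing cells and less RNA per cell cannot be told apart, here and in all that follows.

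At 2 h, against the 8 earlier lysates of both cultures, none of the 8 genes was called by edgeR, where 0.0729% of all genes were (13 genes, all higher). AREG came closest, at a log2 fold change of 1.55 ± 0.26 (edgeR adjusted p = 0.0566), and EREG followed at 1.44 ± 0.25 (edgeR adjusted p = 0.0614). Both were higher in 4 of 4 libraries than in every earlier library of the same culture, a pattern that 0.858% of all genes showed. With the replicate number as a block EREG was called (1.46, edgeR adjusted p = 0.00564) and AREG was not (edgeR adjusted p = 0.052). DESeq2 called both, AREG at an adjusted p of 0.000144 and EREG at 0.000284. Over 18 alternatives the adjusted p ranged from 2.01e-05 to 0.543 for AREG and from 5.24e-10 to 0.543 for EREG. The highest p came without replicate 1 of the spheroids at 2 h, where AREG was at 1.29 and EREG at 1.15. With the library that held leukocyte markers left out, AREG was at 1.45 (edgeR adjusted p = 0.0619) and EREG at 1.61 (edgeR adjusted p = 0.0153). HBEGF had as large a point estimate, 1.59 ± 0.53, but an edgeR adjusted p of 0.771, and was at 0.40 without replicate 1 of the spheroids at 2 h. TGFA (0.29 ± 0.32) and BTC (0.02 ± 0.32) differed by less than their standard errors.

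In monolayers alone the 2 h log2 fold changes were 1.34 ± 0.37 for AREG, 0.82 ± 0.36 for EREG and 0.84 ± 0.75 for HBEGF, none of them called (edgeR adjusted p = 1; 0.00561% of genes called). With the library that held leukocyte markers left out they were 1.13, 1.17 and 1.04. In spheroids alone they were 1.76 ± 0.38 for AREG (edgeR adjusted p = 0.314), 2.06 ± 0.36 for EREG (edgeR adjusted p = 0.0825) and 2.35 ± 0.76 for HBEGF (edgeR adjusted p = 0.974), where 0.0337% of genes were called. EREG in spheroids was called with the replicate number as a block (2.04, edgeR adjusted p = 0.00929), and over 12 alternatives its adjusted p ranged from 4.38e-10 to 1. The difference between the cultures was 0.43 ± 0.55 for AREG, 1.24 ± 0.53 for EREG and 1.5 ± 1.10 for HBEGF in log2 units. Without replicate 1 of the spheroids at 2 h the difference turned to -0.10 for AREG and -0.91 for HBEGF, and the HBEGF value within spheroids turned to -0.05. Without the library that held leukocyte markers the difference for EREG was 0.88. None of these interactions was called (edgeR adjusted p = 1), nor was any other gene, with 382 genes (2.14%) at an unadjusted p under 0.05 and 1 gene called by DESeq2.

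At 24 h EREG was 79.6 to 82.9 CPM in monolayers, against 80.0 to 183 CPM in the 4 earlier libraries, and 22.7 to 23.1 CPM in spheroids, against 14.3 to 27.8 CPM. Against 2 h EREG was at -1.76 ± 0.31 over both cultures (edgeR adjusted p = 0.0914), AREG at -1.01 ± 0.32 (edgeR adjusted p = 0.845) and HBEGF at -1.47 ± 0.65 (edgeR adjusted p = 1), and none was called, where 0.0561% of genes were. EREG was called with the replicate block (-1.70, edgeR adjusted p = 0.0107), and its adjusted p ranged from 1.12e-09 to 0.484 over 14 alternatives. Against the libraries before and right after NEE, AREG at 24 h was at 0.54 ± 0.27 and EREG at -0.32 ± 0.27, with no gene called by edgeR, 5 by DESeq2 and 3.65% at an unadjusted p under 0.05. In spheroids both AREG libraries at 24 h were still above all 4 earlier ones, whereas in monolayers they were not. How many of all genes did so was not computed.

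Among the receptors EGFR, the receptor that binds all 5 of these ligands, was 188 and 122 CPM in monolayers before NEE, 153 and 129.6 right after, 125 and 109.9 at 2 h and 94.6 and 89.2 at 24 h. In spheroids EGFR was 75.1 and 59.8 CPM before, 64.6 and 52.3 right after, 97.7 and 55.0 at 2 h and 69.1 and 53.2 at 24 h. In monolayers the 24 h libraries were the lowest for EGFR, with no overlap, whereas in spheroids the 4 times overlapped. The share of all genes with this monolayer pattern was not computed, so the pattern is a description only. Over both cultures EGFR at 24 h was at -0.39 ± 0.19 against the libraries before and right after NEE (edgeR adjusted p = 1). ERBB2, which has no known ligand of its own and pairs with the other receptors, ranged from 32.0 to 44.5 CPM in monolayers and from 37.9 to 65.9 CPM in spheroids, and at 2 h it was at -0.22 ± 0.18. ERBB2 is uncertain to the extent that the gene overlaps MIEN1 and PGAP3 on the other strand (up to 48.8 and 32.4 CPM), since the strand setting of the counting is not given in the sources used here. EGFR overlaps EGFR-AS1, which reached 3.53 CPM.

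ERBB3, a receptor with a nearly inactive kinase that binds neuregulins, was 4.76 and 7.88 CPM in monolayers before NEE, 0 and 1.34 right after, 1.04 and 2.13 at 2 h and 1.59 and 2.60 at 24 h. In spheroids ERBB3 was 6.10 and 6.30 CPM before, 5.11 and 10.02 right after, 4.75 and 5.80 at 2 h and 0.774 and 12.0 at 24 h. In monolayers both libraries before NEE were above all 6 later ones, and the share of all genes with this pattern was not computed. The right-after difference over both cultures, -1.47 ± 0.84, was not called, and ERBB3 counts in monolayers are low.

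The second comparison set spheroids against monolayers over the 4 times, with 8 libraries on each side. AREG, EREG, HBEGF and EGFR were lower in spheroids and ERBB3 was higher, so that 5 of the 8 genes were called, where 19.9% of all genes were (10% higher and 9.84% lower). EREG showed the largest difference, 142 ± 64.0 CPM in monolayers against 38.7 ± 35.1 in spheroids (SD, n = 8 each). The fitted difference was -2.01 ± 0.22 on the log2 scale, or 4.02-fold lower (edgeR adjusted p = 6.15e-05). AREG was 2.80-fold lower (-1.48 ± 0.23, edgeR adjusted p = 0.000598) and HBEGF 3.34-fold lower (-1.74 ± 0.46, edgeR adjusted p = 0.0182). EGFR was 127 ± 32.1 CPM in monolayers and 65.9 ± 15.2 in spheroids, 1.78-fold lower (-0.83 ± 0.15, edgeR adjusted p = 0.00184). At each of the 4 times both spheroid libraries lay below both monolayer libraries for AREG, EREG and EGFR, as they did for 7.32% of all genes, and for none of the 8 did both lie above (3.91% of all genes). Without the library with leukocyte markers AREG was at -1.59, EREG at -1.83, HBEGF at -1.64 (edgeR adjusted p = 0.0362) and EGFR at -0.75 (edgeR adjusted p = 0.00317). HBEGF was at -2.33 without replicate 1 of the spheroids at 2 h. The 9 myeloid markers summed to 33.0 to 98.1 CPM in spheroids, against 12.8 to 29.3 CPM in the other monolayers, and the 7 fibroblast markers to 5.65 to 11.4 CPM against 11.01 to 24.4 CPM. Of the myeloid markers CD14 reached 85.5 CPM, whereas LYZ, CSF1R, S100A8, S100A9, CD68 and FCN1 were at most 2.99 CPM in any lysate. ITGAM and FCGR3A were 17.7 and 45.9 CPM in replicate 1 of the monolayers before NEE, and reached 12.5 and 4.46 CPM in the other lysates. The part of these markers in the culture differences was not tested.

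ERBB3 was 3.44-fold higher in spheroids (1.78 ± 0.59, edgeR adjusted p = 0.0488), 6.36 ± 3.40 CPM against 2.67 ± 2.52 CPM. This difference averages over the times. Before NEE the cultures overlapped, at 4.76 and 7.88 CPM in monolayers and 6.10 and 6.30 CPM in spheroids. Right after NEE and at 2 h the spheroids were above the monolayers, with means of 7.57 against 0.670 and 5.28 against 1.59 CPM. At 24 h the spheroid libraries, at 0.774 and 12.0 CPM, lay on either side of the monolayer ones, at 1.59 and 2.60 CPM. The ERBB3 call was lost in 14 of 16 fits that left out 1 library. The estimate was 1.70 without the library with leukocyte markers (edgeR adjusted p = 0.117), 1.01 without replicate 2 of the spheroids at 24 h and 3.46 without replicate 2 of the monolayers right after NEE, and the adjusted p over all 21 alternatives ranged from 8.7e-05 to 0.22. ERBB2 (0.37 ± 0.15, edgeR adjusted p = 0.092), TGFA (0.38 ± 0.26, edgeR adjusted p = 0.348) and BTC (-0.20 ± 0.26, edgeR adjusted p = 0.67) were not called, and their libraries overlapped between the cultures. DESeq2 called ERBB2 at an adjusted p of 0.0433, within a range of 0.0433 to 0.258 over its alternatives.

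**Figure D3:**
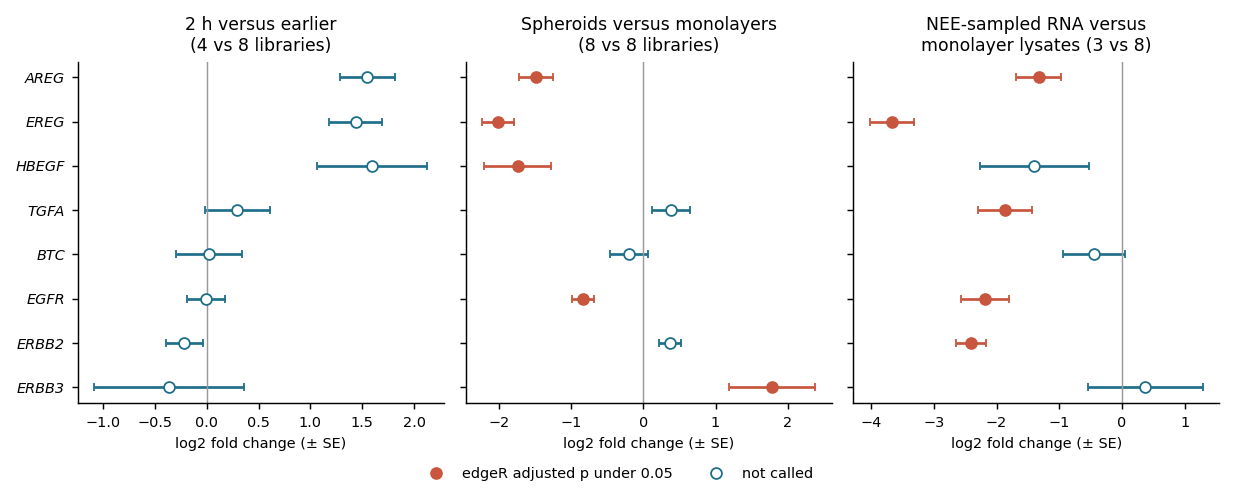
log2 fold change with its SE (x axis, edgeR) of the 8 genes in 3 comparisons: 2 h against the libraries before and right after NEE, spheroids against monolayers, and NEE-sampled RNA against monolayer lysates. Filled points have an adjusted p under 0.05: none at 2 h, 5 genes between cultures (ERBB3 higher, 4 lower) and 5 genes in NEE-sampled RNA, all lower.

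The third comparison set RNA sampled by NEE against the 8 monolayer lysates. EREG, ERBB2, EGFR, TGFA and AREG were lower in NEE-sampled RNA, 5 of the 8 genes, where 48.6% of all genes were called (26% lower, 22.5% higher). The members' median log2 fold change was -1.64 and that of all genes -0.20. EREG was 11.9, 5.52 and 7.40 CPM in the 3 NEE-sampled libraries against 79.6 to 236 CPM in monolayers, 12.7-fold lower (-3.67 ± 0.35, edgeR adjusted p = 7.85e-06). ERBB2 was 4.70, 6.15 and 5.94 CPM against 32.0 to 44.5 CPM, 5.31-fold lower (-2.41 ± 0.24, edgeR adjusted p = 1.12e-05). Neither gene overlapped between the groups, and the ERBB2 values of the 3 technical replicates were close together.

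EGFR was 37.8, 18.7 and 8.43 CPM in NEE-sampled RNA against 89.2 to 188 CPM, 4.57-fold lower (-2.19 ± 0.38, edgeR adjusted p = 0.000533). Without NEE-sampled replicate 1, the highest of the 3, EGFR was at -2.88 (edgeR adjusted p = 0.00011). TGFA was 2.94, 12.4 and 7.78 CPM against 19.6 to 55.5 CPM, 3.65-fold lower (-1.87 ± 0.43, edgeR adjusted p = 0.00346). The technical replicates of EGFR and TGFA spread over several-fold but stayed below every monolayer lysate. AREG was 8.81, 4.19 and 8.43 CPM against 11.2 to 51.7 CPM, 2.51-fold lower (-1.33 ± 0.36, edgeR adjusted p = 0.00888). The AREG call was lost with the technical replicates summed into 1 library (-1.20, edgeR adjusted p = 0.108) and against the monolayers right after NEE only (-1.01, edgeR adjusted p = 0.0945), and its adjusted p over 17 alternatives ranged from 0.000481 to 0.108. With the monolayer library that held leukocyte markers left out, AREG was at -1.45, EREG at -3.52, EGFR at -2.13, TGFA at -1.98 and ERBB2 at -2.45. All 3 NEE-sampled libraries were below all 8 monolayer lysates for these 5 genes, as for 29.5% of all genes.

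HBEGF was 3.30, 2.03 and 0 CPM in NEE-sampled RNA (-1.40 ± 0.87, edgeR adjusted p = 0.201), and the count of 0 allows up to 0.162 CPM. BTC was 4.11, 1.47 and 1.62 CPM (-0.45, edgeR adjusted p = 0.48) and ERBB3 0.294, 4.54 and 1.30 CPM (0.37, edgeR adjusted p = 0.776; -0.90 without NEE-sampled replicate 2). These 3 genes were not called, and their NEE-sampled values overlapped the lysates. The NEE-sampled libraries are technical replicates, and the labels do not give the source of each. The p-values of this comparison rest on a pooled spread, that between these technical replicates and that between the 2 lysate libraries of each monolayer group. They treat the 3 technical replicates as separate samples, and a spread between independent NEE samplings cannot be read from them. Sampling by NEE and the separate purification kit used for it cannot be told apart.

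The other genes of the pathway were taken from lists. Of 7 further family genes, EPGN, NRG3 and ERBB4 were below the filter and EGF and NRG2 were at most 5.13 CPM. NRG4 was 1.83 to 9.06 CPM in monolayers, 5.47 to 13.3 CPM in spheroids and 1.62 to 2.94 CPM in NEE-sampled RNA, and was not called in any comparison. NRG1, a neuregulin that binds ERBB3 and ERBB4, was 77.7 ± 18.3 CPM in monolayers, 34.9 ± 15.7 in spheroids and 27.7 ± 5.85 in NEE-sampled RNA. NRG1 was lower in spheroids (-1.08 ± 0.19, edgeR adjusted p = 0.00128) and in NEE-sampled RNA (-1.13 ± 0.21, edgeR adjusted p = 0.000745).

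At 2 h FOSL1, an AP-1 subunit transcribed in response to ERK, was the 1 gene called of the 14 ERK response genes (0.0729% of all genes called), at 1.93 ± 0.30 (edgeR adjusted p = 0.0253). FOSL1 was 214 and 126 CPM in monolayers at 2 h against 33.4 to 96.1 CPM earlier, and 146 and 50.7 CPM in spheroids at 2 h against 15.0 to 18.8 CPM earlier. The FOSL1 call was lost in 7 of 12 fits without 1 library, at 1.44 (edgeR adjusted p = 0.237) without replicate 1 of the spheroids at 2 h. Its adjusted p over 18 alternatives ranged from 1.33e-17 to 0.237. The estimate was positive for 13 of the 14 genes, with a median of 0.50 against -0.0015 for all genes. The list was chosen with earlier results of these data known, so these values describe it and are no test. Besides FOSL1, the feedback inhibitors SPRY2 and SPRY4 and the early response gene IER3 were above every earlier library of the same culture in both cultures. AREG and EREG showed this pattern too, as did 0.858% of all genes. SPRY2, SPRY4 and IER3 were named after their values were seen, and a shared cause was not tested. None of the 7 shedding genes, 16 adaptor and cascade genes and 11 attenuation genes tested was called at 2 h. GAB1, a docking adaptor, had the smallest p among them, at -2.0 ± 0.41 (edgeR adjusted p = 0.147).

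Between cultures 19.9% of all genes were called, and the counts of the lists are read against that share. The shedding list had 1 of 7 genes called, ADAM15, a metalloprotease, higher in spheroids (0.64 ± 0.12, edgeR adjusted p = 0.0023). The adaptor and cascade list had 1 of 16 called, PTPN11, the phosphatase SHP2, lower (-0.70 ± 0.14, edgeR adjusted p = 0.00384). Of 11 attenuation genes 2 were higher and 2 lower: LRIG3 (1.00 ± 0.27) and the EGFR kinase inhibitor ERRFI1 (1.26 ± 0.33) were higher, and UBASH3B (-1.24 ± 0.22) was among those lower. The ERRFI1 call was lost in 6 of 16 fits without 1 library, among them that without the library with leukocyte markers (1.11, edgeR adjusted p = 0.0578). Of the ERK response genes ETV4 was higher (1.30 ± 0.23), whereas FOSL1 (-1.47 ± 0.26) and the cyclin CCND1 (-1.15 ± 0.21) were lower. The medians of these 4 lists lay between -0.05 and 0.24, against -0.51 for the 8 members and -0.02 for all genes.

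In NEE-sampled RNA 5 of 7 shedding genes were called lower and none higher, where 26% of all genes were called lower. ADAM15 and RHBDF1 were not called, with estimates of 0.16 ± 0.19 and 0.45 ± 0.39. ADAM9 was 40.6 ± 3.55 CPM there against 677 ± 156 CPM in monolayers (-3.72 ± 0.24, edgeR adjusted p = 1.05e-06). ADAM10, which releases several EGF family ligands, was 19.0 ± 5.87 against 388 ± 98.8 CPM (-4.02 ± 0.32, edgeR adjusted p = 2.65e-06), and ADAM17, the main sheddase of AREG, EREG, HBEGF and TGFA, was at -2.28 ± 0.30 (edgeR adjusted p = 6.96e-05). Of the cascade genes 4 of 16 were higher and 4 lower, near the 22.5% and 26% of all genes: MAPK3, which encodes ERK1, was 42.8 ± 7.51 against 6.79 ± 2.19 CPM (3.01 ± 0.28), HRAS was at 3.19 ± 0.46 and MAP2K2, which encodes MEK2, at 2.34 ± 0.22. Of 11 attenuation genes 2 were higher and 4 lower, and 48.6% of all genes were called in either direction. The lower ones were led by SOCS5 (-1.80 ± 0.25), SOCS4 (-1.62 ± 0.30) and PTPN1 (-1.39 ± 0.31). Of 14 ERK response genes ETV4 was higher (2.14 ± 0.23) and 4 were lower, among them DUSP6 (-2.25 ± 0.36) and DUSP4 (-0.65 ± 0.14), whose call was lost with the technical replicates summed (edgeR adjusted p = 0.16, the highest of 17 alternatives). The list medians were -1.77 for shedding, 0.12 for the cascade, -0.85 for attenuation and -0.39 for ERK response genes.

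**Figure D4:**
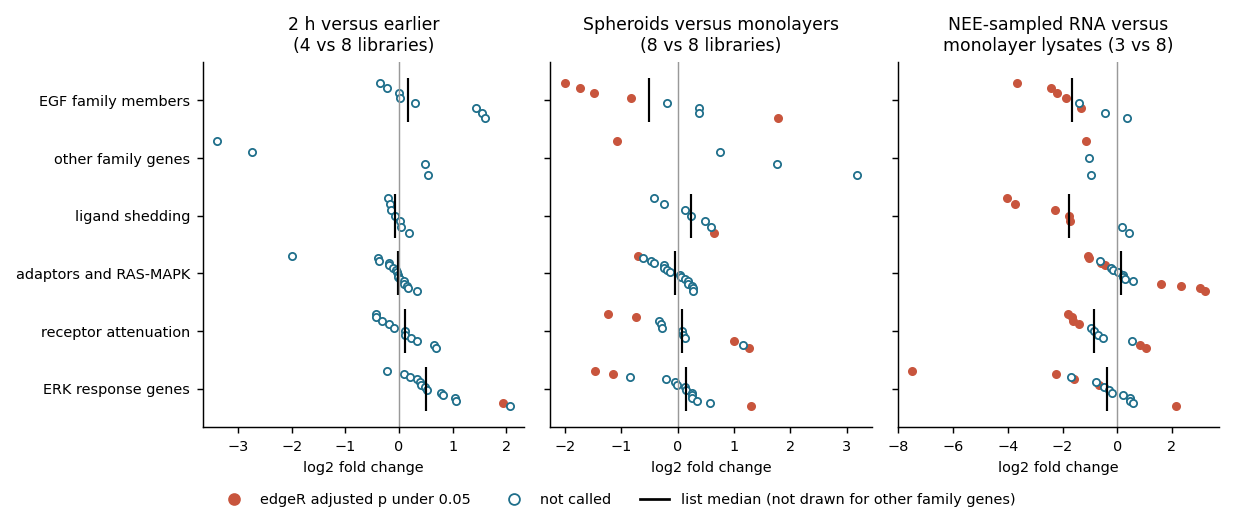
log2 fold changes (x axis, edgeR) of the tested genes of each list (y axis) in the 3 comparisons, filled where the adjusted p was under 0.05, with list medians as black lines. FOSL1 is the one filled point at 2 h, and 5 of 7 shedding genes lie far left in NEE-sampled RNA; the leftmost point of that panel is EGR1, at 0 in all 3 NEE-sampled libraries, whose fitted value depends on the prior count.

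The patterns of the genes over the 16 lysates were compared by Pearson correlation of log2(TMM-scaled CPM + 1), as a description, since these libraries share cultures and times. Nearest to AREG among about 9700 genes were EMP1 (r = 0.94), MYADM (r = 0.92) and NOP56 (r = 0.90), with EREG at rank 18 (r = 0.84). Nearest to EREG were EHD1 (r = 0.93), CDCA4 (r = 0.92) and ABL2 (r = 0.92), with EGFR at rank 78 and AREG at rank 91. HBEGF was nearest to NFATC2, ABL2 and NRG1 (r = 0.90, 0.90 and 0.89), and EGFR to HAS2, SLC7A1 and USB1 (r = 0.93, 0.92 and 0.92). TGFA was nearest to RNF13 (r = 0.84), then ATP6V0A1 and PCDH9, and BTC to MIGA1 (r = 0.83), then CHUK and GTF2IRD1. ERBB2 was nearest to FLYWCH1 (r = 0.87), then GLT8D1 and ATP13A1, and ERBB3 to TMEM50A (r = 0.85), then CTDSPL and PIGB. Among all these nearest genes, NRG1 for HBEGF was the only one of the EGF family. EREG and ERBB2 ran opposite to each other (r = -0.72), and TGFA was near 0 against AREG (r = -0.05).

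The genes also differed in how the 2 replicate numbers, which the labels call batches, were ordered. EGFR was higher in replicate 1 in 8 of 8 lysate groups, as were 1.54% of all genes, and EREG in 7 of 8, where 7.3% of genes reached at least 7. ERBB3 was higher in replicate 2 in 8 of 8 groups, as were 2.7% of genes, and TGFA in 7 of 8, where 8.42% reached at least 7. AREG was split, with replicate 1 higher in 4 groups and replicate 2 in 4.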

How the data were processed

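RNA was sequenced from 16 A549 lysates (8 groups of 2 biological replicates) and 3 technical replicates of NEE-sampled RNA. The deposited values are raw counts. The submitters' processing notes name GRCh38 and the tools Trimmomatic, FastQC, featureCounts and HISAT2, and which annotation and strand setting the authors used is not given in the sources used here. Lysate RNA and NEE-sampled RNA were purified with different kits, per the labels' protocols. Group membership came from the sample titles.

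The main tests on counts used edgeR 4.0.16 (R 4.3.3; TMM scaling, default low-count filter, robust quasi-likelihood test, Benjamini-Hochberg adjustment over all genes tested, adjusted p under 0.05). The lysate fit held 17822 genes and 8 groups with 8 residual degrees of freedom; the NEE fit held 17067 genes, the 3 NEE-sampled and 8 monolayer libraries and 6 residual degrees of freedom. The SE is the log2 fold change divided by the square root of F. The script was tested on simulated data with planted changes, as a check of the code only. The simulated spread and sizes of change were not matched to these data. "Earlier" means before and right after NEE. Biological coefficients of variation were 0.518 and 0.519. CPM was computed in Python 3.11.15 from library totals, and gene coordinates and exon lengths came from GENCODE 29, which placed 58207 of 62700 genes.

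The labels' batch tag numbers the lysate replicates and was taken to pair them. Across 10089 genes, libraries sharing a number deviated from their groups with correlations of -0.261 to 0.475 (28 pairs, median 0.205, 19 above 0.1). The main fit leaves the number out, and the block is an alternative. The 11 pairs of libraries within a group were no duplicates: chi-square averaged 38.3 to 229 for each gene of at least 20 counts.

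All 8 members were named, with up to 3 called genes of each list by smallest p, and the gene with the smallest p where none was called. The 3 genes nearest to each member in pattern were also named, with a mean of at least 5 TMM-scaled CPM. SPRY2, SPRY4, IER3, EGR1, RHBDF1 and, in NEE-sampled RNA, ADAM15 were named after their values were seen. The members, lists and comparisons were chosen with earlier results of these data known. Alternatives were DESeq2 1.42.0, RLE scaling, no filter, a filter of 5 CPM in 2 libraries, the replicate block, a fit of the compared groups only, NEE replicates summed, monolayers right after NEE as the reference, and leaving out each library.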

Additional observations from a re-analysis of the deposited data

How the results depend on the processing

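The call counts after NEE were small and moved with the settings. The numbers of genes called without the low-count filter were 10 right after NEE, 113 at 2 h over both cultures (2 of them members), 117 for 24 h against 2 h (1 member), 64 for 24 h against earlier, 53 at 2 h in monolayers, 90 at 2 h in spheroids (2 members) and 11 for the interaction. DESeq2 called 86 (2 members), 63 (1 member), 5, 15, 62 (2 members) and 1 gene in the same order from 2 h over both cultures on. The stricter filter gave 2 members at 2 h over both cultures (AREG at an edgeR adjusted p of 0.0431 and EREG at 0.0485). The replicate block gave 1 member, EREG, at 2 h over both cultures, for 24 h against 2 h and at 2 h in spheroids, and changed no other call of a member. Fits of the compared groups only called 7 genes at 2 h over both cultures, 2 for 24 h against 2 h, 0 in monolayers and 2 in spheroids. Summing the NEE replicates gave 5030 genes, and against the monolayers right after NEE BTC turned to 0.0556.

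With 1 library left out, counts ran from 0 to 1 right after NEE, 6 to 28 at 2 h over both cultures (members 0 to 2), 1 to 16 for 24 h against 2 h (members 0 to 1), 0 to 2 for 24 h against earlier, 0 to 2 at 2 h in monolayers, 2 to 14 at 2 h in spheroids (members 0 to 1), 2387 to 4009 between cultures (members 4 to 5) and 7134 to 8617 for NEE-sampled RNA (members 5 in each). Values that changed sign were EREG right after NEE (-0.32 to 0.33), EGFR (-0.25 to 0.18), BTC (-0.0677 to 0.156) and ERBB3 (-0.67 to 1.31) at 2 h, BTC (-0.196 to 0.0382) and ERBB3 (-1.23 to 0.79) for 24 h against 2 h, HBEGF at 2 h in spheroids (-0.0549 to 3.20), the interactions of AREG (-0.10 to 0.81) and HBEGF (-0.91 to 2.35), and ERBB3 in NEE-sampled RNA (-0.90 to 2.01). Of the 402 single-gene values under other settings 401 kept their direction, as did 786 of 807 with a library left out. Groups of 2 libraries limit the precision, and where 1 was left a lone library was assumed to vary like the others. HBEGF, BTC and ERBB3 rest on few counts.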
